A study of Mus musculus with 15 samples.

Results

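The genes that encode the proteins of the cytosolic ribosome, named Rpl for the large subunit and Rps for the small one, were followed in the gonadal white fat of Sfrp5 knockout and wild-type mice. A gene was a member if a probe set carried exactly 1 symbol that starts with Rpl or Rps and a number, or was Rplp0, Rplp1, Rplp2 or Rpsa. Pseudogenes and the S6 kinases were left out, and a gene was read from its probe set with the highest mean signal over the arrays. This gave 62 of 19938 named genes, from 218 of 35557 probe sets. Of the 62, 54 were core ribosomal proteins (33 of the large and 21 of the small subunit), and 8 were copies or relatives of core genes. The other 23 of 77 core genes listed, such as Rpl3, Rpl11 and Rps24, were not analysed here. The difference between genotypes in these genes was part of the reason for choosing them. It is therefore given as a description, with its standard error (SE) and no p for any member. Counts past a threshold of the limma test are given beside the share over all probe sets, and nothing is read from them.

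The mice were 8 males labelled Sfrp5 KO (Q27Stop) and 7 wild-type males, all of strain C57BL6/J. Both genotypes ate a high-fat diet for 8 weeks, between 4 and 12 weeks of age, so no mouse on another diet was compared. Sfrp5 encodes a secreted Frizzled-related protein that binds Wnt ligands outside the cell. The label names a stop codon in the gene itself and no tissue-specific driver. Each mouse gave 1 Affymetrix array, and the values are log2 expression values, on which a difference of 1 is a doubling of signal. The arrays hold no counts, so their number sets the precision.

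Sfrp5 itself averaged 6.69 ± 0.40 in KO fat and 7.92 ± 0.24 in wild-type fat (SD, n = 8 and 7), a difference of -1.23 (SE 0.16, limma adjusted p = 0.0200). The fat cell genes marked the tissue as labelled, with adiponectin (Adipoq) at 12.70 in KO and 12.52 in wild-type fat. A mean over 7 of the 8 adipocyte markers was 11.74 in KO and 11.70 in wild-type fat. Of these, Adipoq, Plin1, Cidec and Fabp4 differed by 0.17, 0.16, 0.04 and 0.05, and Lep, Pparg and Lipe by -0.08, -0.07 and -0.04. Genes of the epididymis, the duct that this fat pad lies on, had a mean of 10.44 in KO replicate 2 and one of 7.30 in the fourth wild-type array, while the 13 remaining arrays ran from 5.59 to 7.12 (8 of 10 listed genes measured). Genes of macrophages averaged 9.90 in KO replicate 8, with a range of 8.62 to 9.90 in KO and 8.81 to 9.32 in wild-type fat (10 of 10 genes). Genes of the mesothelium, the sheet of cells over the fat pad, averaged 8.30 in KO fat (7.83 to 8.66) and 7.92 in wild-type fat (7.25 to 8.52), with 9 of 9 genes measured. The part of these cells in the ribosomal values was not tested. Arrays are numbered 8 to 15 in the KO mice and 1 to 7 in the wild-type mice in the labels, so an effect of array order and one of genotype cannot be told apart. The samples are whole fat, and fewer cells of a type and less RNA per cell cannot be told apart.

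A ribosome joins its proteins to ribosomal RNA in a small subunit, which reads the messenger RNA, and a large subunit, which links the amino acids. Cells make the proteins in nearly equal amounts and degrade those left unassembled. In mammals their messenger RNAs begin with a cytosine followed by a run of pyrimidines, the 5′ terminal oligopyrimidine tract, through which mTOR signalling sets how well they are translated. An array measures the messenger RNA only and not its translation.

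Ribosomal protein signals were slightly higher in KO fat across most of the family. The 62 genes differed by a median of 0.07 (KO minus wild type), against -0.01 over all 35557 probe sets, and 52 of the 62 were higher in KO fat, against 47.5% of all probe sets. Of the large subunit 28 of 33 core genes were higher, with a median of 0.07. Of the small subunit 19 of 21 were higher, with a median of 0.08. The single differences ran from -0.11 for Rpl3l to 0.32 for Rps15a. By the limma test over all probe sets, with an adjusted p threshold of 0.05, 0 of the 62 genes passed, where 12 probe sets or 0.0337% passed in all. At an unadjusted p under 0.05 there were 13 genes, all higher in KO fat, against 9.97% of all probe sets in either direction and 4.94% of them higher. In 0 of the 62 genes did the values of the genotypes lie apart without overlap, which 0.217% of all probe sets did.

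**Figure D1:**
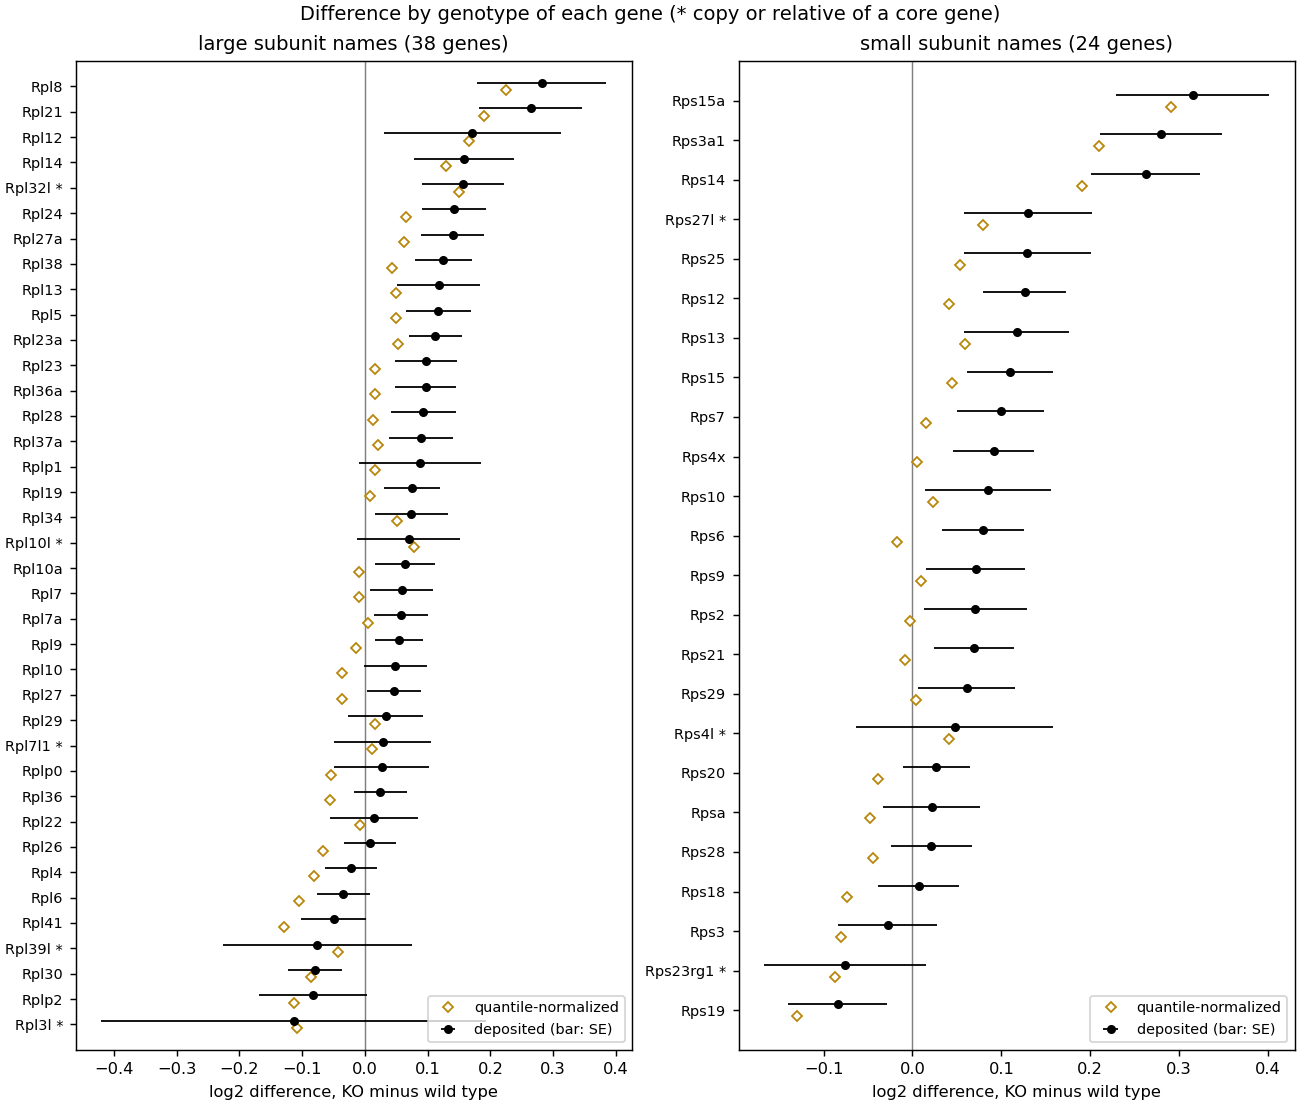
Difference between genotypes (log2, KO minus wild type) of each of the 62 genes, large subunit names on the left and small subunit names on the right, with a bar of 1 SE. Black points are the deposited values, of which 52 lie above 0, and open diamonds the same values after quantile normalization over the 15 arrays, of which 36 lie above 0.

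The shift was of the size of the spread between mice. The mean of the 62 genes per array was 11.31 ± 0.05 in KO fat, with a lowest value of 11.25, a median of 11.31 and a highest of 11.38. In wild-type fat it was 11.24 ± 0.05, with a lowest of 11.18, a median of 11.26 and a highest of 11.33. The genotypes overlapped: KO replicate 1 lay below 4 of the 7 wild-type arrays, and wild-type replicate 4 lay above 6 of the 8 KO arrays. KO replicates 2 and 8 were the highest arrays, and wild-type replicates 1 and 7 the lowest. The difference of the means was 0.07 (SE 0.03). Without KO replicate 2 and wild-type replicate 4, the array of each genotype with the highest epididymis signal, 52 genes were still higher in KO fat, with a median of 0.09. Without KO replicates 7 and 8 it was 51 genes, with a median of 0.06.

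**Figure D2:**
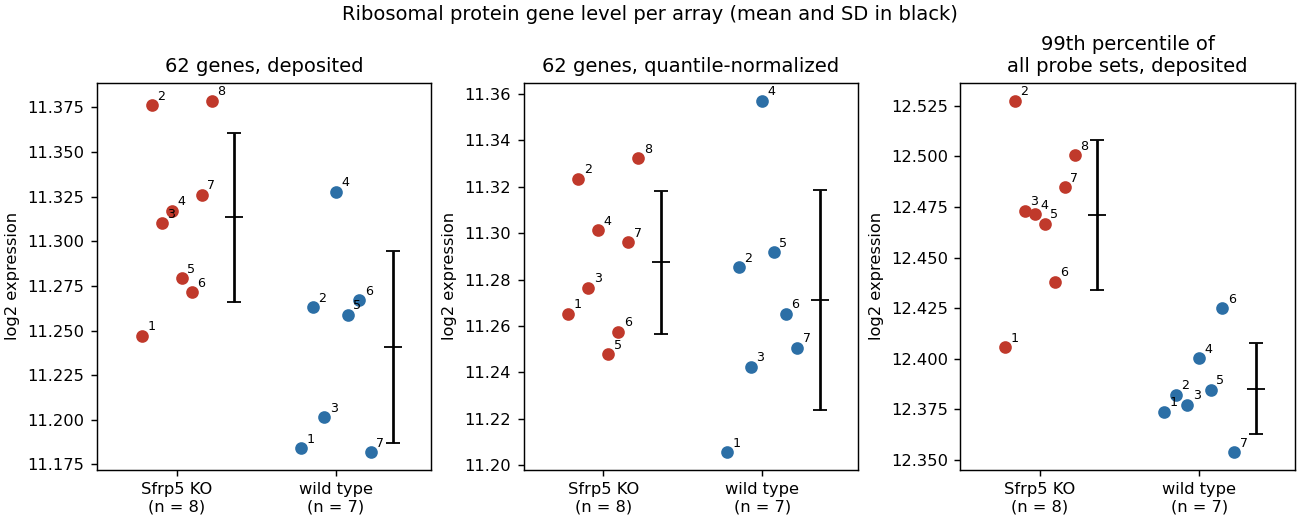
Mean log2 level of the 62 genes in each array as deposited (left) and after quantile normalization (centre), and the 99th percentile of all probe sets of each array (right), with replicate numbers beside the points and the mean and SD of each genotype in black. The KO arrays average 11.31 against 11.24 for wild type on the left, 11.29 against 11.27 in the centre and 12.47 against 12.39 on the right.

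The brightest probe sets of the arrays were shifted in the same direction as the ribosomal protein genes. The 99th percentile of all probe sets was 12.47 ± 0.04 in KO arrays and 12.39 ± 0.02 in wild-type arrays, a difference of 0.09 (SE 0.02), while the median of all probe sets was 7.03 in KO and 7.02 in wild-type arrays. A lower percentile of all probe sets, near a level of 11, was 10.98 in KO and 10.93 in wild-type arrays, a difference of 0.05 (SE 0.02). Most ribosomal protein signals were bright, with 46 of the 62 above a mean level of 11 and 51 above the 90th percentile of named genes. Many of them still lay below the 99th percentile of all probe sets. A probe set's signal also depends on its probes, so these levels do not rank the genes by transcript number. The other probe sets were therefore grouped by level, in bands chosen with the values known and without the 459 probe sets that name a ribosomal protein gene or pseudogene, alone or with other genes. At levels of 12 to 13, the 31 ribosomal protein genes had a median difference of 0.08 and 28 were higher in KO fat, beside a median of 0.06 for 379 other probe sets, of which 73.9% were higher. At 11 to 12, the 13 ribosomal protein genes had a median of 0.07 and 11 were higher, beside a median of 0.04 for 873 other probe sets, of which 65.3% were higher. At 10 to 11 the 4 ribosomal protein genes had a median of 0.22 beside 0.02 for 1589 others, and at 13 or more 2 had 0.11 beside 0.05. At 8 to 10, 7 had 0.03 beside -0.00, at 6 to 8, 4 had -0.00 beside -0.00, and at 4 to 6, 1 had -0.08 beside -0.04. With only the 218 single-symbol sets left out, the medians of the others were 0.07 at 12 to 13 and 0.05 at 11 to 12. Probe sets without a symbol stayed among the others and may include copies of these genes. Below a level of 4, 2159 other probe sets had a median of -0.08 and 25.8% were higher. How far this pattern over all bright probe sets makes up the ribosomal shift was not tested.

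Quantile normalization, which gives all 15 arrays the same distribution, took most of the common shift away. The median of the 62 genes became 0.01, and 36 of the 62 were higher in KO fat against 46.6% of all probe sets. The limma test again passed 0 of the 62, against 0.0169% of all probe sets, and 9 reached an unadjusted p under 0.05, against 9.07%. The mean per array became 11.29 ± 0.03 in KO and 11.27 ± 0.05 in wild-type fat, a difference of 0.02 (SE 0.02). On the brightest probe set the sign changed in 16 genes, among them Rps6, Rps2, Rpl10 and Rplp0. Other probe sets of a gene could keep theirs, as a dimmer one of Rps2 did, at 0.34 as deposited and 0.29 after normalization. The 379 other probe sets at levels of 12 to 13 had a median of -0.02 after it, with 42.7% higher in KO fat, beside a median of 0.00 and 16 of 31 for the ribosomal protein genes there. At 10 to 11 the 4 ribosomal protein genes had a median of 0.18 after it, beside -0.01 for 1589 others. Of the 9 genes with an unadjusted p under 0.05 after normalization, 6 were higher in KO fat and 3 lower. Over all 35557 probe sets 1467 were higher and 1758 lower at that threshold. Centring each array on its median instead left the difference of the means at 0.06. The direction of a ribosomal protein gene near 0 therefore rests on the scaling, and values after quantile normalization stand beside most of the deposited ones below.

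**Figure D3:**
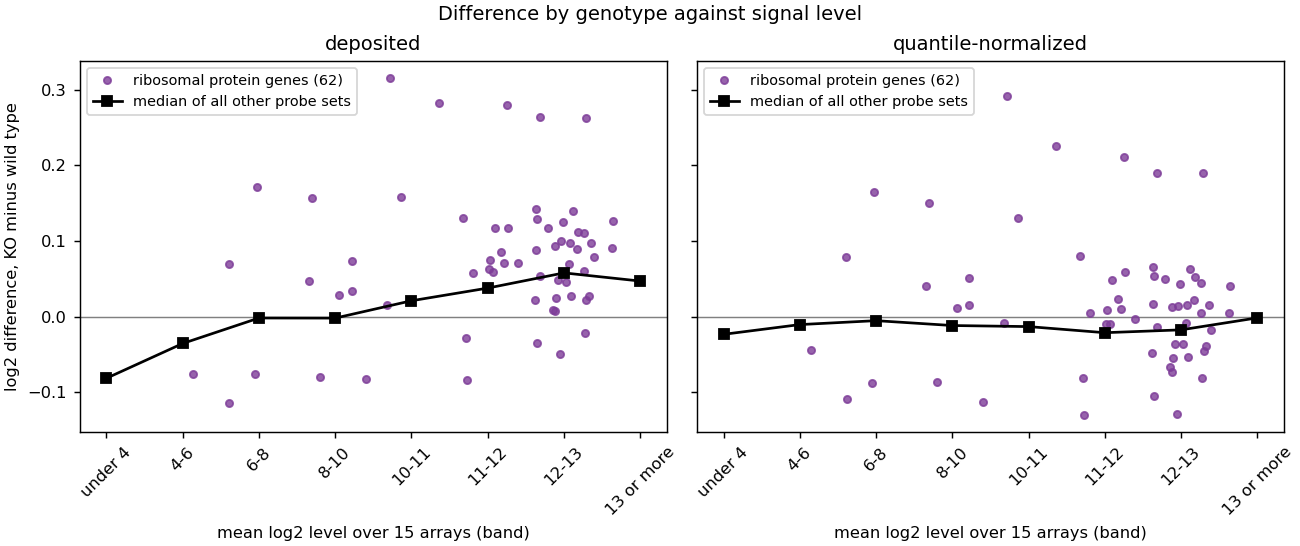
Difference between genotypes (log2, KO minus wild type) against mean signal level, as deposited on the left and quantile-normalized on the right. Points are the 62 ribosomal protein genes and the black line the median of the probe sets that name no ribosomal protein gene in each level band, which reaches 0.06 at levels of 12 to 13 as deposited and lies between -0.02 and -0.00 in all bands after normalization.

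The annotated starts of these genes were searched for the pyrimidine tract that the family is known for. RefSeq windows (build GRCm38.p6) from 250 bases before to 50 after the annotated start were matched for 50 of the 62 genes, 59 windows in all. None was matched for Rpl7, Rpl8, Rpl21, Rpl23a, Rpl29, Rpl30, Rpl36, Rplp1, Rps4l, Rps14, Rps20 and Rps29. A run of at least 8 pyrimidines (C or T) between 10 bases before and 15 after the start was present in 15 of the 59 windows, 25.4%, against 9.46% of 21262 windows of protein-coding genes. Shorter runs were not counted, and the annotated starts were not checked against measured ones. These shares therefore do not tell how many genes lack the tract. The first base was C or T in 44.1% of the ribosomal windows and in 23.4% of the protein-coding ones. CCGGAAG on either strand, which holds the core of sites bound by ETS family factors, was in 33.9% against 11.6%. For TATAAA on the given strand the shares were 8.47% and 8.26%, for GGGCGG on either strand 55.9% and 46.2%, and for AAGATGGC on either strand, part of the YY1 motif, 5.08% and 3.05%. The stretches below run 5′ to 3′ from 60 bases before the start to 30 after it, with capitals on CCGGAAG in either orientation and on a pyrimidine run of at least 8 bases, counted only from 10 bases before the start to 15 after it. A run can go on beyond that stretch in small letters, as in Rpl7a, and runs outside it, as in Rps15a, are not marked. The first 4 belong to the genes with a window that had the highest differences: Rps15a at chr7:118116118-118116207 on the minus strand, Rps3a1 at chr3:86142639-86142728 on the minus strand, Rpl12 at chr2:32961652-32961741 on the plus strand and Rpl14 at chr9:120571457-120571546 on the plus strand.
Rps15a: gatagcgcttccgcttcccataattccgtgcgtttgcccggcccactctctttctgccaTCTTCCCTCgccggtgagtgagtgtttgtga
Rps3a1: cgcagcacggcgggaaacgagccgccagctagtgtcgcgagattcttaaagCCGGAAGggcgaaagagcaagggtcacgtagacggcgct
Rpl12: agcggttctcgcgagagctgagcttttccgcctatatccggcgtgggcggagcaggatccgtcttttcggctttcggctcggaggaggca
Rpl14: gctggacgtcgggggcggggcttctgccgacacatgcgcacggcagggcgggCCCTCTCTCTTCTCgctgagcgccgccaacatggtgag
The next 4 belong to the core genes with a window that had the lowest differences: Rps19 at chr7:24884532-24884621 on the plus strand, Rplp2 at chr7:141447591-141447680 on the plus strand, Rpl41 at chr10:128549139-128549228 on the minus strand and Rpl6 at chr5:121204441-121204530 on the plus strand.
Rps19: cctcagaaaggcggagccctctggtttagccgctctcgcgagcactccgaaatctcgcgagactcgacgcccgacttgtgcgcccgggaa
Rplp2: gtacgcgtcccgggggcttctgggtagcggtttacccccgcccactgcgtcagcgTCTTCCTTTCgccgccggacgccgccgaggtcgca
Rpl41: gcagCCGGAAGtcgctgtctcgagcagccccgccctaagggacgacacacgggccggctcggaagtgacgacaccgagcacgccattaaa
Rpl6: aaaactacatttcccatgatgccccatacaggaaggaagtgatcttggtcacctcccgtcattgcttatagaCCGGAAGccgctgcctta
The last 4 are shown for long pyrimidine runs, of 19, 17, 13 and 11 bases inside that stretch: Rpl27a at chr7:109519135-109519224 on the plus strand, Rpl7a at chr2:26910747-26910836 on the plus strand, Rps10 at chr17:27635215-27635304 on the minus strand and Rpl28 at chr7:4792905-4792994 on the plus strand.
Rpl27a: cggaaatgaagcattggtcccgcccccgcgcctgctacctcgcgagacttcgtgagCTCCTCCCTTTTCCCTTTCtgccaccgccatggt
Rpl7a: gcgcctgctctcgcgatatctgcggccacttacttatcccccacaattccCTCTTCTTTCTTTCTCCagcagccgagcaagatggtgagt
Rps10: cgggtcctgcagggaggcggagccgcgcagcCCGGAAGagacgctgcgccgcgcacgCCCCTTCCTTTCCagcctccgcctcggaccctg
Rpl28: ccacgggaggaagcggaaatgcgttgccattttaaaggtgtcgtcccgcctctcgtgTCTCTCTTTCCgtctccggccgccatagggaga
A long run was found at both ends of the order of differences. Rps15a and Rpl14 among the highest and Rplp2 among the lowest hold one, and Rps3a1 and Rps19 do not. Of the 15 genes with a run of at least 8 bases 13 were higher in KO fat, with a median difference of 0.08, and of the 35 with a shorter one 28 were, with a median of 0.07. The 19 genes with CCGGAAG and the 31 without it had medians of 0.07 each.

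**Figure D4:**
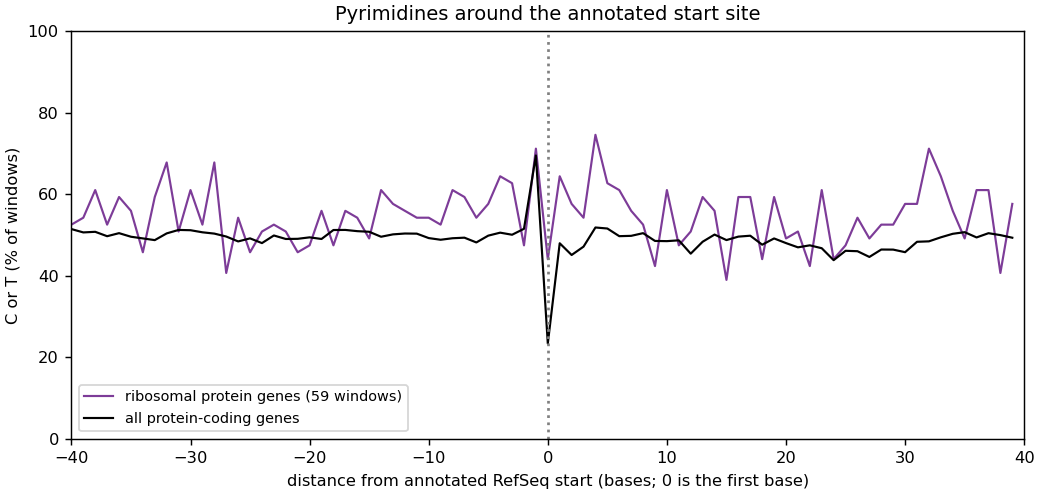
Share of windows with C or T at each base around the annotated start, for the 59 windows of ribosomal protein genes and for all protein-coding genes. At the first base the share is 44.1% for the ribosomal protein genes and 23.4% for all protein-coding genes.

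Among the small subunit genes Rps15a, which encodes a protein of the 40S body, had the highest difference of the family on brightest probe sets. It read 10.00 at its lowest, 10.34 at the median and 10.48 at its highest in KO fat, and 9.72, 9.99 and 10.19 in wild-type fat. Every KO array lay above the wild-type mean, but KO replicates 1 and 6 lay below the highest wild-type array, replicate 7. The difference was 0.32 (SE 0.09), and 0.29 after quantile normalization. A dimmer probe set of Rps2, at a level of 11.28, differed by 0.34 (SE 0.08), or 0.29 after normalization. The brightest one of Rps2 differed by 0.07. Rps3a1, the mouse gene of the early-assembling protein eS1, read 11.69, 11.95 and 12.15 in KO fat and 11.52, 11.69 and 11.76 in wild-type fat. KO replicate 1 alone lay within the wild-type range, and the difference was 0.28 (SE 0.07), or 0.21 after normalization. Rps14, whose human counterpart is lost in the 5q deletion syndrome of the bone marrow, read 12.85, 12.97 and 13.10 in KO fat and 12.51, 12.72 and 12.89 in wild-type fat. Only wild-type replicate 4 reached into the KO range. The difference was 0.26 (SE 0.06), or 0.19 after normalization, and its 2 probe sets gave 0.20 and 0.26.

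Other small subunit genes lay lower or near 0. Rps12, at 13.06 one of the brightest signals of the family, averaged 13.11 ± 0.07 in KO and 12.99 ± 0.05 in wild-type fat, a difference of 0.13 (SE 0.05), or 0.04 after normalization. Its 14 probe sets, which hold 8 distinct sets of values, were all higher in KO fat. Rps4x, an X-linked gene whose human counterpart has a partner on the Y chromosome, differed by 0.09 (SE 0.05), or 0.01 after normalization. Rps6, the substrate of the S6 kinases downstream of mTOR, averaged 13.02 ± 0.08 in KO and 12.94 ± 0.02 in wild-type fat, with a difference of 0.08 (SE 0.05), or -0.02 after normalization. Rps10, Rps29, Rps21 and Rpsa, the last also known as a laminin receptor precursor, differed by 0.09, 0.06, 0.07 and 0.02 as deposited, and by 0.02, 0.00, -0.01 and -0.05 after normalization. Without KO replicate 8 Rps10 differed by 0.05 and Rpsa by -0.01. Dimmer probe sets of Rps10, Rps29, Rps21 and Rpsa ran up to 0.16, 0.12, 0.22 and 0.15 as deposited. After normalization these sets lay at 0.11, 0.04, 0.16 and 0.14. Rps20 was among the steadiest signals, at 12.93 ± 0.03 in KO and 12.90 ± 0.03 in wild-type fat, and differed by -0.04 after normalization.

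Rps19, the gene most often mutated in human Diamond-Blackfan anaemia, was the lowest of the small subunit core. It read 10.90, 11.14 and 11.26 in KO fat and 11.08, 11.20 and 11.30 in wild-type fat. Only KO replicate 1 lay above the wild-type mean, and KO replicate 2 was the lowest array of all. The difference was -0.08 (SE 0.06), or -0.13 after normalization, and -0.05 without KO replicate 2. Rps3, which also acts in DNA repair, differed by -0.03 (SE 0.06), or -0.08 after normalization, and as deposited by 0.01 without wild-type replicate 4.

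Among the large subunit genes, Rpl8, whose protein lies close to the catalytic centre, had the highest difference on brightest probe sets. It read 10.81, 11.07 and 11.43 in KO fat and 10.34, 10.83 and 11.07 in wild-type fat. All KO arrays lay above the wild-type mean, and the outer values were KO replicate 8 and wild-type replicate 7. The difference was 0.28 (SE 0.10), or 0.23 after normalization. Rpl21 read 11.88, 12.27 and 12.53 in KO fat and 11.89, 11.94 and 12.09 in wild-type fat. KO replicate 1 was the lowest array of all 15 and the other KO arrays lay high or at the top of the wild-type range, so the KO spread was the wider one (SD 0.20 against 0.08). The difference was 0.26 (SE 0.08), or 0.19 after normalization, but as deposited the gene's 9 probe sets ran from 0.08 to 0.26, so the brightest one gives the upper end. Rpl12, which forms the base of the stalk, differed by 0.17 (SE 0.14) on a probe set at a level of 6.93, by 0.17 after normalization too, and as deposited by 0.09 without KO replicate 6. Rpl14 read 10.19, 10.40 and 10.62 in KO fat and 9.95, 10.31 and 10.36 in wild-type fat, a difference of 0.16 (SE 0.08), or 0.13 after normalization.

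**Figure D5:**
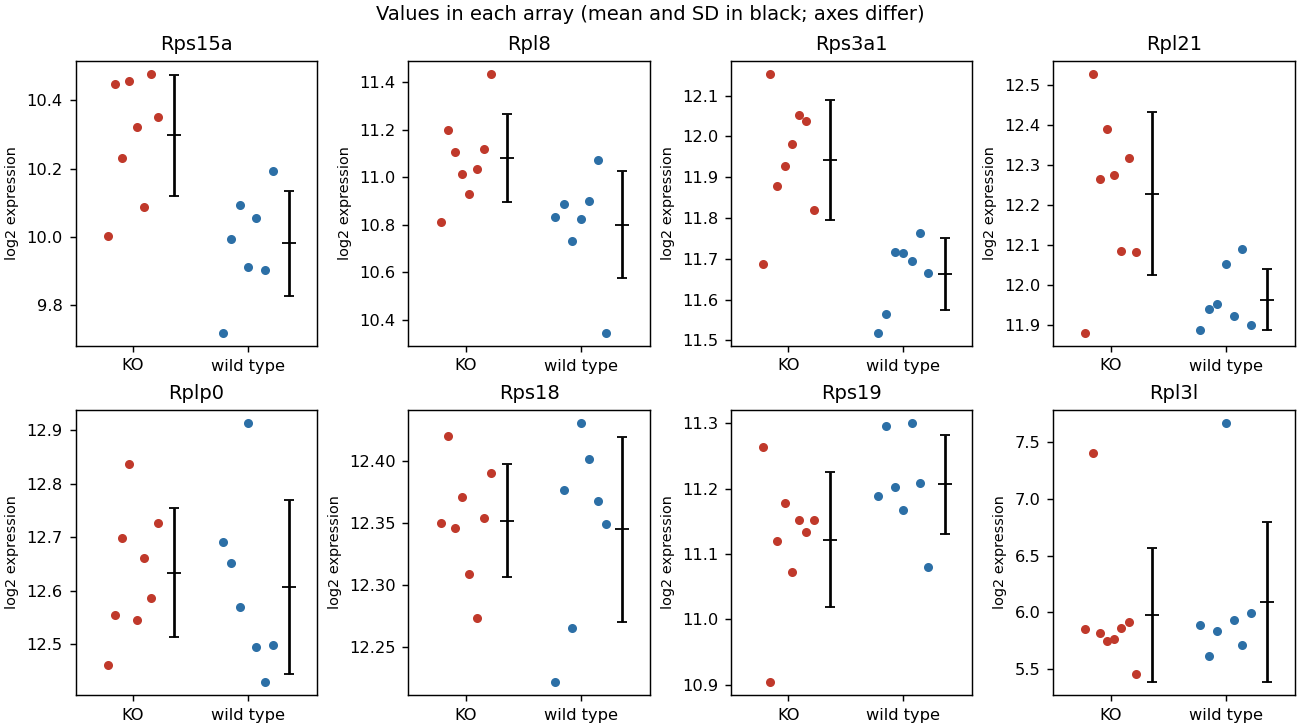
Log2 expression in each of the 8 KO and 7 wild-type arrays for 8 genes, with the mean and SD in black and a separate axis for each gene. Rps15a, Rpl8, Rps3a1 and Rpl21 lie higher in KO fat with overlap, Rplp0 and Rps18 overlap throughout, Rps19 lies lower in KO fat, and Rpl3l is set apart by 1 array of each genotype.

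Several large subunit genes with other known roles had small differences. Rpl5, which with Rpl11 and 5S RNA binds Mdm2, averaged 12.29 ± 0.10 in KO and 12.17 ± 0.05 in wild-type fat, a difference of 0.12 (SE 0.05), or 0.05 after normalization. As deposited the 5 probe sets of Rpl5 ran from 0.12 to 0.29. Rpl38, which in mouse embryos is needed for translation of Hox messenger RNAs, averaged 12.55 ± 0.06 in KO and 12.42 ± 0.06 in wild-type fat, a difference of 0.12 (SE 0.05), or 0.04 after normalization. Every KO array of Rpl38, Rpl23, Rpl23a and Rpl28 lay above its wild-type mean. Rpl22, Rpl26 and Rpl10 differed by 0.01, 0.01 and 0.05, each within 1 SE of 0, as did 22 of the 62 genes. After normalization these 3 lay at -0.01, -0.07 and -0.04. Rpl9 was among the steadiest genes, at 12.13 ± 0.02 in KO and 12.08 ± 0.04 in wild-type fat, a difference of 0.05 (SE 0.04) that was -0.01 after normalization. Rpl4, Rpl6 and Rpl41, the last encoding the shortest ribosomal protein, lay below 0 at -0.02, -0.03 and -0.05, and at -0.08, -0.11 and -0.13 after normalization. All 3 probe sets of Rpl6 were lower in KO fat, while the 3 of Rpl41 hold identical values and count as 1.

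On their brightest probe sets the remaining core genes lay between these ends. Rpl24, Rpl27a, Rpl13, Rpl37a, Rpl36a and Rpl34 differed by 0.14, 0.14, 0.12, 0.09, 0.10 and 0.07, and Rps25, Rps13, Rps15, Rps7, Rps9 and Rps2 by 0.13, 0.12, 0.11, 0.10, 0.07 and 0.07. Rpl10a, Rpl7a, Rpl27, Rpl29, Rpl36 and Rps28 were closer to 0, at 0.06, 0.06, 0.05, 0.03, 0.02 and 0.02. After normalization all of these lay between -0.06 and 0.07.

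The lateral stalk, where Rplp0 anchors the acidic proteins Rplp1 and Rplp2 and recruits elongation factors, showed no common direction on brightest probe sets. Rplp0 read 12.46, 12.62 and 12.84 in KO fat and 12.43, 12.57 and 12.91 in wild-type fat. The ranges overlapped throughout, and the difference was 0.03 (SE 0.08), or -0.05 after normalization. Rplp1 differed by 0.09 (SE 0.10), or 0.02 after normalization, and as deposited by 0.01 without wild-type replicate 7. A dimmer probe set of Rplp1, at a level of 10.93, differed by 0.22 (SE 0.09), or 0.16 after normalization. The dimmer one of Rplp0, at 10.77, differed by -0.02 (SE 0.10), or -0.06 after normalization. Rplp2 differed by -0.08 (SE 0.09), or -0.11 after normalization, and as deposited by -0.00 without wild-type replicate 5, which at 10.51 lay above all other arrays.

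Rplp0, Rps18 and Rpl19 often serve as references in quantitative PCR. Rps18 averaged 12.35 ± 0.05 in KO and 12.35 ± 0.07 in wild-type fat, with a difference of 0.01 (SE 0.05), or -0.07 after normalization. This brightest probe set gives the lower end, since the 7 of Rps18 ran from 0.01 to 0.14 as deposited. Rpl19 averaged 11.58 ± 0.04 in KO and 11.50 ± 0.07 in wild-type fat, a difference of 0.07 (SE 0.04), or 0.01 after normalization. As deposited its 7 probe sets ran from 0.05 to 0.14. Within genotypes the SD of Rplp0 was 0.14, wider than the 0.06 of Rps18 and of Rpl19.

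The 8 copies and relatives had no common direction, with 5 higher in KO fat and a median difference of 0.04, or 0.03 after normalization. Rpl3l, the form of Rpl3 made in heart and skeletal muscle, read 5.46, 5.84 and 7.40 in KO fat and 5.62, 5.89 and 7.66 in wild-type fat. The high values are KO replicate 2 and wild-type replicate 4, the arrays with the highest epididymis means, 10.44 and 7.30, and the 13 other arrays lay between 5.46 and 5.99. KO replicate 6, with an epididymis mean of 7.12, read 5.87. A mean over 5 of 5 muscle markers was 7.09 in KO replicate 2 and 7.21 in wild-type replicate 4. It ranged from 7.09 to 7.51 in KO fat and from 7.06 to 7.27 in wild-type fat. The part of the epididymis or of muscle in Rpl3l was not tested. Its difference of -0.11 (SE 0.31), the same after normalization, was 0.15 without wild-type replicate 4 and -0.32 without KO replicate 2. Rpl39l and Rpl10l, the germ-cell forms of Rpl39 and Rpl10, differed by -0.08 (SE 0.15) and 0.07 (SE 0.08) at levels of 5.35 and 6.02, and by -0.04 and 0.08 after normalization. Rpl10, the X-linked parent of Rpl10l, read 12.41 on its own probe set. Rps27l, a p53-induced relative of Rps27, averaged 11.15 ± 0.14 in KO and 11.02 ± 0.12 in wild-type fat, a difference of 0.13 (SE 0.07), or 0.08 after normalization. Rpl7l1 and its relative Rpl7 differed by 0.03 and 0.06, and by 0.01 and -0.01 after normalization. Rps4l and Rps23rg1, a retrogene of Rps23 in mice, differed by 0.05 and -0.08, and by 0.04 and -0.09 after normalization. Without wild-type replicate 7 Rps4l differed by -0.03 as deposited. A dimmer probe set of Rps4l, at a level of 7.61, differed by 0.18 (SE 0.05), or 0.17 after normalization. Rpl32l differed by 0.16 (SE 0.07), or 0.15 after normalization.

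Many copies of these genes lie in the genome, which limits what a probe set can be tied to. Beside the 218 probe sets with a single symbol, 148 carried several symbols with a ribosomal protein gene among them. In 12 of the 62 genes such a shared probe set was the brighter one, as in Rpl30, whose own probe set read 8.49 and a shared one 13.03. On its own probe set Rpl30 lay below the wild-type mean in all 8 KO arrays, with a difference of -0.08 (SE 0.04), or -0.09 after normalization. Among the genes with the highest differences, Rps15a, Rpl12, Rps3a1 and Rpl21 also had brighter shared sets, at 12.73, 12.85, 12.10 and 12.55. Of the 218 single-symbol probe sets 202 were higher in KO fat, with a median of 0.09, and 148 after quantile normalization, with a median of 0.03. Some of these sets hold the same values in all arrays, and counted once they are 206, of which 192 were higher, or 140 after normalization. Among the 39 genes with several sets, 2 (Rpl27 and Rplp0) had sets on both sides of 0. Whether transcripts of one gene or pseudogene reach the probes of another was not tested.

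Within genotypes the genes moved together only in part. Over 1431 pairs of the 54 core genes the median correlation of deviations from the genotype mean across the 15 arrays was 0.33, and 82.9% of pairs were above 0. After quantile normalization the median was 0.21. All these values come from the same arrays and share their scaling. Rps13, Rps14 and Rps9 followed the core mean most closely, with correlations of 0.90, 0.85 and 0.84, and Rpl12, Rps19, Rpl41, Rpl6 and Rpl26 did not follow it (-0.19, -0.15, -0.02, 0.05 and 0.06). Outside the family, the genes whose level followed the mean of the 62 most closely over the 15 arrays, genotype difference included, were Vamp8, a vesicle fusion protein, with a Pearson correlation of 0.91, the proteasome subunit Psma7 with 0.88, Dazap2 with 0.86, the elongation factor subunit Eef1b2 with 0.86, and Syce2 with 0.85. After quantile normalization these were 0.74, 0.51, 0.86, 0.69 and 0.88.

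In the rest of the translation machinery 0 genes of 5 lists passed the limma test, where 0.0337% of all probe sets did. Their counts at an unadjusted p under 0.05 are to be read against 9.97% of all probe sets. Fau, which encodes a small subunit protein fused to a ubiquitin-like one, was the 1 measured gene of 3 ribosomal proteins with other symbols. It differed by 0.10 (SE 0.07, limma adjusted p = 0.710). The next list held elongation factors, genes that only share their Eef names, such as Eef1e1 and Eef2k, and other messenger RNAs taken to have a pyrimidine tract. Of its 13 measured genes 7 were higher in KO fat, with a median of 0.03 (-0.02 after normalization), and 3 reached an unadjusted p under 0.05. The ends of that list were Npm1, a nucleolar chaperone, at 0.24 (SE 0.08) and the tissue-restricted factor Eef1a2 at 0.18 (SE 0.10), and Eef1e1 at -0.12 (SE 0.12) and Eef1a1 at -0.06 (SE 0.04). The lowest limma adjusted p in it was 0.168. Of 31 initiation factors 19 were higher, with a median of 0.02 (-0.02 after normalization), and 4 reached an unadjusted p under 0.05, 2 in each direction. Eif5a, which eases elongation and termination despite its name, lay at 0.30 (SE 0.10) and the helicase Eif4a1 at 0.19 (SE 0.08). Eif2b3, of the nucleotide exchange factor for eIF2, lay at -0.19 (SE 0.07) and Eif3m at -0.17 (SE 0.08).

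Factors that build ribosomes had a median just below 0. Of 49 biogenesis factors 19 were higher in KO fat, with a median of -0.02 (-0.03 after normalization). An unadjusted p under 0.05 was reached by 4 of them, 2 in each direction, against 9.97% of all probe sets. Nucleolin (Ncl) at 0.21 (SE 0.07) and Rrs1, which brings 5S RNA into the large subunit, at 0.21 (SE 0.07) were the highest. The lowest were Nolc1, a chaperone of small nucleolar particles, at -0.16 (SE 0.06) and Tsr1, of small subunit maturation, at -0.15 (SE 0.06). Of 28 genes of RNA polymerase I and growth control 15 were higher, with a median of 0.01 (-0.01 after normalization), and 0 reached an unadjusted p under 0.05. Mdm2 at 0.10 (SE 0.07) and Taf1a at 0.10 (SE 0.14) were the highest, and Mtor at -0.11 (SE 0.06) and Polr1e at -0.10 (SE 0.12) the lowest. The biogenesis list had a median level of 8.81 and the ribosomal protein genes one of 12.04, so these lists lie in different level bands.

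Introns of ribosomal protein genes also hold small nucleolar RNAs, which guide modification of ribosomal RNA. Of 39 such genes inside the 62, 12 were measured, in 10 hosts, and 0 passed the limma test, where 0.0337% of all probe sets did. In KO fat 4 of the 12 were higher, against 47.5% of all probe sets, with a median of -0.07 and a range of -0.20 to 0.18. Snord73a differed by 0.04 (SE 0.16), while its host Rps3a1 differed by 0.28. Snora62 differed by -0.20 (SE 0.11) and its host Rpsa by 0.02. Most of these probe sets read between 5.48 and 7.63, in bands where other probe sets had medians at or below 0.

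Genes of 3 other large complexes were set beside those of the ribosome, at median levels of 11.20 for oxidative phosphorylation, 10.53 for the proteasome and 8.84 for the mitochondrial ribosome. Of 77 nuclear genes of oxidative phosphorylation 61 were higher in KO fat, with a median of 0.06, and 41 after quantile normalization, with a median of 0.01. Of 40 proteasome genes 29 were higher, with a median of 0.03, and 20 after normalization. Of the 77 genes for mitochondrial ribosomal proteins, which serve the ribosome of the mitochondrion, 49 were higher, with a median of 0.02, and 40 after normalization. In each of these lists 0 genes passed the limma test, where 0.0337% of all probe sets did. An unadjusted p under 0.05 was reached by 12 of 77, 5 of 40 and 6 of 77 genes, against 9.97% of all probe sets, and the counts of the proteasome and the mitochondrial ribosome lie near that share. A test of the ribosomal genes against these lists was not made.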

How the data were processed

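RNA of gonadal fat from 15 mice was amplified from 10 ng with a whole-transcript kit, biotin-labelled and hybridised, per the labels' protocols. The deposited log2 values were made by the authors with RMA, per the submitters' processing notes, where Affymetrix Expression Console 1.1.2800.19935, affy 1.18 and limma also stand without a role. The sources used here give neither the genome build nor whether RMA took the 15 arrays together. Detection per probe was not assessed, since no scanner file entered.

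Genotype and replicate come from the sample titles, which call the arrays biological replicates. The platform annotation named the probe sets (1 symbol for 21789, several for 1621, none for 12147), and all 62 genes matched RefSeq by gene ID. KO was compared with wild type by limma 3.58.1 in R 4.3.3 (lmFit, eBayes, two-sided, no covariate) over all 35557 probe sets without a filter, with Benjamini-Hochberg adjustment and a threshold of 0.05. Tested on simulated shifts in 35557 probe sets, the fit recovered 14% of 50 shifts of 0.3 and 80% of 50 shifts of 0.5. Array means, level bands and promoter features were computed in Python 3.11.15. Members and lists were chosen with earlier results of these data known.

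The genes named are a fixed set, all copies with their parents, the extremes of level, difference and spread, genes with an outlying array, the 2 highest and 2 lowest of each translation list, and the 5 most like the family mean. Other genes were named to complete the family or with their values known. Alternatives were quantile normalization, median centring, a filter below the 33rd percentile of level, another variance model, array weights, averaging all probe sets of a gene, leaving out arrays and a replicate block. Same-numbered mice of the genotypes share only a number.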

Additional observations from a re-analysis of the deposited data

Results flagged for a closer look

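In the 128 groups of values examined (62 genes and 2 array summaries in each genotype), 11 values lay apart from the rest of their genotype by Dixon's test. Chance flags about 1 in 20 groups. KO replicate 8 was high for Rpl28 at 12.54 (next array 12.42), Rps10 at 12.03 (next 11.78) and Rpsa at 12.25 (next 12.09). The same array had the highest macrophage marker mean, 9.90, whose part in these values was not tested. KO replicate 2 was high for Rpl3l at 7.40 (next 5.92), and wild-type replicate 4 for Rpl3l at 7.66 (next 5.99) and Rps3 at 11.37 (next 11.18). These arrays had the highest epididymis marker means of their genotypes, 10.44 and 7.30, whose part was not tested either.

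KO replicate 3 was high for Rpl39l at 6.08 (next 5.34), and KO replicate 5 was low for Rps21 at 12.51 (next 12.59). Wild-type replicate 5 was high for Rplp2 at 10.51 (next 10.00), wild-type replicate 6 for Rps12 at 13.11, and wild-type replicate 7 was low for Rps4l at 7.64 (next 8.07).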

How the results depend on the processing

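The number of probe sets past the limma threshold, 12 as reported, was 6 after quantile normalization, 7 after median centring, 26 without dim probe sets, 48 with an intensity trend and robust prior, 25 with array weights, 0 without KO replicate 2 and wild-type replicate 4, 2 without KO replicates 7 and 8, and 0 with a block for the replicate number. Leaving out 1 array gave 0 (without KO replicate 2, for example) to 133 (without KO replicate 1). Of the 62 ribosomal protein genes 0 passed, and 0 to 1 with 1 array left out. The 1 came without KO replicate 1, where 133 of all 35557 probe sets passed, and nothing is read from it. The number higher in KO fat, 52, ran from 49 to 54 with 1 array left out and was 36 after quantile normalization. The median difference of 0.07 became 0.0107 under that normalization, and ran from 0.06 to 0.10 with 1 array left out. The difference of the array means, 0.07, became 0.0164 under it, and ran from 0.06 to 0.09 with 1 array left out. The median of the list with the elongation factors, 0.03, became -0.0203 after quantile normalization, and 1 of its genes, Tpt1, passed with the trend and robust prior. Of 981 values of 41 named genes 17 moved by over 1 SD, 16 of them under quantile normalization. Same-numbered arrays of the genotypes correlated at -0.117 to 0.248, with 3 of 7 pairs over 0.1, and 1 of 14 arrays correlated best with its own number. The share of simulated shifts found is over all probe sets, whose median SD within genotypes was 0.18, and does not carry over to the ribosomal protein genes, with a median SD of 0.08. The choices that were added after the data were seen are leaving out all probe sets that name a ribosomal protein gene from the level bands, and counting identical probe sets once.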
